A study of Mus musculus with 6 samples.

Results

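The transforming growth factor beta (TGF-beta) pathway of stem cell quiescence was described through 10 genes, taken by symbol from the deposited tables: the ligand Tgfb1, the receptors Tgfbr1, Tgfbr2 and Eng, the Smads Smad2, Smad3, Smad4 and Smad7, and the corepressors Ski and Skil. All 10 were found among 14455 gene symbols, and all 10 were listed in all 4 RNA libraries, as were 12152 genes. Total RNA had been sequenced from sorted LSK cells, the bone marrow fraction without lineage markers that carries Sca-1 and c-Kit and holds the hematopoietic stem cells and multipotent progenitors. The mice were C57BL/6, either with a conditional knockout of Setd2 (KO), which encodes a histone methyltransferase that marks the bodies of transcribed genes, or wild type (WT). The groups were young KO and young WT, 4 weeks after pI-pC, and old KO and old WT, 8 months after pI-pC. By its label every group, WT included, had been given pI-pC, an interferon inducer used to switch on inducible deletion. The sources used here do not name the Cre driver, the number of mice pooled or their sex. Each group was 1 library, so no difference has a replicate check and none has a test.

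TGF-beta binds the type II receptor Tgfbr2, which then phosphorylates the type I receptor Tgfbr1, and Tgfbr1 phosphorylates Smad2 and Smad3. These join Smad4, enter the nucleus and act on target genes, while Smad7 blocks the receptors, and Ski and Skil (also called SnoN) bind Smad complexes and hold their targets down. Both Smad7 and Skil are themselves induced by the pathway as feedback inhibitors, and in bone marrow TGF-beta is known for keeping hematopoietic stem cells out of the cell cycle.

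Start site regions were in the RefSeq table (GRCm38.p6) for 6 of the 10 genes, in 7 windows of 300 bases each. Shown are Ski, which reached 1.5-fold between KO and WT cells at both ages, and the receptors Tgfbr2 and Eng, whose windows hold the short Smad box. Each runs 5′ to 3′ on the strand of its gene: Ski at chr4:155222486-155222785 (minus strand), Tgfbr2 at chr9:116175314-116175613 (minus strand) and Eng at chr2:32646345-32646644 (plus strand). Capitals mark the GC box, GGGCGG or CCGCCC on the other strand, and the Smad box, CAGAC or GTCTG on the other strand. The 2 motifs do not overlap each other here.
Ski: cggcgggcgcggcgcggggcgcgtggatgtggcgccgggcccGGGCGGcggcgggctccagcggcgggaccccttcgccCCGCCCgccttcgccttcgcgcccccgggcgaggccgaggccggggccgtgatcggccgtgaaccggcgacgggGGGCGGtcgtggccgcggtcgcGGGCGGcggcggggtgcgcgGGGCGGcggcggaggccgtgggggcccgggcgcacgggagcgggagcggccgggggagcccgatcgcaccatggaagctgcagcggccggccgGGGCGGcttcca
Tgfbr2: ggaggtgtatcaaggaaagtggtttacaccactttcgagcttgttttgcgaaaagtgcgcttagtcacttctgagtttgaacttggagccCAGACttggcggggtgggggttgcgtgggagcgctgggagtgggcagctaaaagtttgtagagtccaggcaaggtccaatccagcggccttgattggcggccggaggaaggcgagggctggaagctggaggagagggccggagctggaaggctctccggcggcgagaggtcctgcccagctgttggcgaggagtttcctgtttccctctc
Eng: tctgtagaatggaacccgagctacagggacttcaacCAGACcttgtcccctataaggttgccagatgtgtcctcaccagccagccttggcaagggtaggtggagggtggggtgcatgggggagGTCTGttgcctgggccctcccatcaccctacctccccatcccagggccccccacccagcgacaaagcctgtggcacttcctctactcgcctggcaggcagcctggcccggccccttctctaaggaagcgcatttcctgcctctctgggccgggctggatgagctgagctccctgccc

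The Ski window held 6 GC boxes and 0 Smad boxes, with 85.3% G and C and 59 CpG dinucleotides, against medians of 52.7% and 7 over 32851 RefSeq promoters, and 99.9% of these had a lower GC content. Tgfbr2 had 1 Smad box, 59% G and C and 15 CpG, and Eng had 2 Smad boxes, 63.3% G and C and 6 CpG. The window of Tgfb1, not printed, also held 6 GC boxes, with 77% G and C, and the second of the 2 windows of Tgfbr1, not printed, held 1 Smad box. Smad boxes occurred in 49.6% and GC boxes in 35.7% of all promoters, and the longer Smad palindrome GTCTAGAC occurred in 0.213% and in none of the 7 windows. A match is a run of letters only, and nothing is drawn from it about binding.

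Levels are FPKM (fragments counted per kilobase of transcript and per size of the library), divided by a library factor between 0.979 and 1.06. They are per length, so genes can be compared with each other. Tgfb1 was the highest and Skil the lowest of the 10 in each of the 4 libraries, at 37.3 to 46.9 and at 1.01 to 3.45 scaled FPKM. In young KO cells the order from high to low was Tgfb1, Tgfbr2, Smad3, Smad4, Ski, Eng, Tgfbr1, Smad2, Smad7 and Skil. Ski was 5th in both KO libraries, against 7th in young WT and 8th in old WT cells. A difference is that of log2(scaled FPKM + 1), KO minus WT or old minus young, a scale on which the change of low genes comes out too small. A gene counts as changed at 1.5-fold, a difference of 0.58. The ± after a difference is a 95% counting interval for a transcript of 1 kb, estimated from the spacing of low values. Longer transcripts have narrower intervals, and neither duplicate reads nor differences between mice are covered. A counted unit was taken as 2 steps of the low values in every library. Taking it as 1 step in the old libraries, a choice added after the data were seen, narrows their intervals: 6 of the 10 genes then lay beyond theirs between old KO and old WT cells, against 2 with 2 steps, the added ones being Tgfbr1, Smad3, Smad7 and Skil. Between old WT and young WT cells 2 did, against 1, the added one being Skil.

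**Figure D1:**
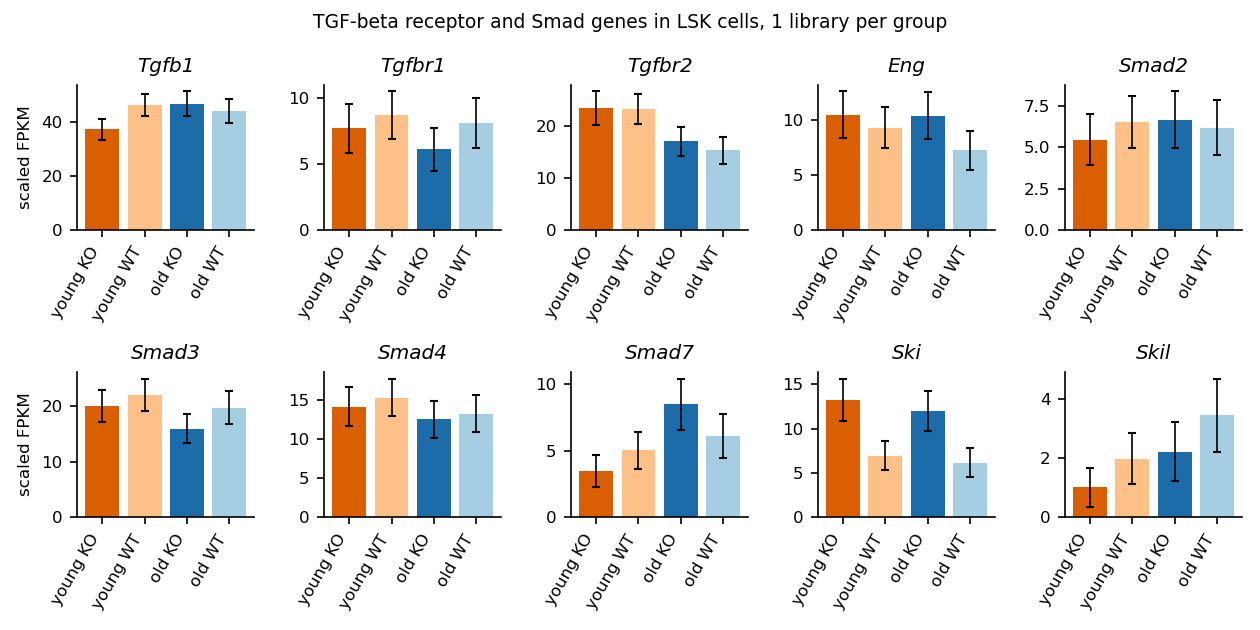
Scaled FPKM of the 10 genes in each library. Each bar is 1 library, in the order young KO, young WT, old KO and old WT, each panel has its own axis from 0, and error bars are 95% counting intervals for a 1 kb transcript. For Ski both KO bars (13.3 and 12.0) stand above both WT bars (6.97 and 6.15), while the Tgfbr2 bars of old cells are below those of young cells.

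Ski was the only one of the 10 genes to reach 1.5-fold between KO and WT cells, and it was higher in KO cells at both ages. In young cells 1 of 10 genes reached 1.5-fold in either direction, where 7.77% of 12409 measured genes did, and none reached 2-fold, where 1.72% did. In old cells it was again 1 of 10, where 12% of 12478 genes did, and none reached 2-fold, where 4.3% did. A count of 1 in 10 is thus close to the background. The median difference of the 10 genes was -0.15 in young and 0.09 in old cells, against 0.00 for all measured genes at each age, and 7 of 10 lay below 0 in young cells (Tgfbr2 joined them without the library factors) and 4 of 10 in old cells. In bulk RNA, fewer cells of a type and less RNA per cell cannot be told apart.

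Ski (ENSMUSG00000029050, chr4:155154075-155222592, mm10) is the corepressor that binds Smad complexes. It was at 13.3 scaled FPKM in young KO cells, against 6.97 in young WT cells, and at 12.0 in old KO cells, against 6.15 in old WT cells. Both KO libraries were above both WT libraries, and the gap between the lower KO and the higher WT library, 0.71 ± 0.39, is wider than its counting interval. The difference was 0.84 ± 0.38 in young cells, a ratio of 1.90, and 0.86 ± 0.42 in old cells, a ratio of 1.95. It was the 215th highest difference of 12409 genes in young and the 303rd highest of 12478 in old cells. These 2 comparisons share no library. Over the 11873 genes measured at both ages, 53 were at least 1.5-fold higher in KO cells at both, or 0.446%, and 21 were at least as far above 0 as Ski at both. Ski showed little difference by age, at -0.13 ± 0.35 between old KO and young KO and -0.16 ± 0.44 between old WT and young WT cells.

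The genes next to Ski on chromosome 4 that were listed in all 4 libraries did not share its difference. Rer1, on one side, had differences of 0.25 in young and 0.10 in old cells, and Faap20, on the other side, had -0.21 and -0.09. Morn1, which lies between Rer1 and Ski, was low, at 1.03 in young KO, 1.10 in young WT, 0.859 in old KO and 1.46 scaled FPKM in old WT cells. None of the 4 neighbours reached 1.5-fold at either age. The last of them, 5830444B04Rik, was listed only in young WT cells, at 0.51 scaled FPKM. Elsewhere it was set to the value for unlisted genes, so it could not show a difference. The erythroid markers, 20 of 20 listed in every library, summed to 995.6 in young KO and 466.5 in young WT cells, but to 312.1 in old KO and 476.6 scaled FPKM in old WT cells. In young cells 18 of the 20 were at least 1.5-fold higher in KO cells, and in old cells 5 were higher and 11 lower. The neutrophil, monocyte and plasma cell markers, whose sums are given with the age comparisons and with Nrros, also differed between old KO and old WT cells. The part of any of these in the Ski level was not tested.

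By distance of the log2 levels centred on each gene's mean over the 4 libraries, the genes most like Ski among 7074 genes at 5 or more scaled FPKM in at least 1 library were Stard7, Cd82 and Gatad2b. Stard7, a lipid transfer protein of mitochondria, lay at a distance of 0.09, with 19.1 in young KO, 10.5 in young WT, 16.7 in old KO and 9.63 scaled FPKM in old WT cells. Cd82, a tetraspanin of the cell surface, lay at 0.10, with 11.4, 5.32, 10.2 and 5.05 scaled FPKM in the same order of libraries. Gatad2b, a subunit of the NuRD chromatin complex, lay at 0.16. In all, 4 genes lay within 0.25. The likeness rests on 4 libraries and is a description only.

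Skil (ENSMUSG00000027660, chr3:31095058-31122577), the relative of Ski that the pathway induces, was the other way round. It was at 1.01 scaled FPKM in young KO cells, against 1.98 in young WT cells, and at 2.22 in old KO cells, against 3.45 in old WT cells. Each KO library was below the WT library of its age, but old KO was above young WT cells, so KO and WT overlap across the ages. The differences, -0.57 ± 0.63 in young and -0.47 ± 0.59 in old cells, did not reach 1.5-fold and lie within their counting intervals. As a plain ratio of scaled FPKM, KO over WT, Skil came to 0.509 in young and 0.644 in old cells. The ratio of Ski to Skil within a library was 13.2 in young KO, against 3.52 in young WT cells, and 5.42 in old KO, against 1.78 in old WT cells. It was thus higher in the KO library at each age and lower in old than in young cells of each genotype. These ratios carry no interval and rest on low Skil levels, that of young KO cells being 8.94 counted units for 1 kb.

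Smad7 (ENSMUSG00000025880, chromosome 18), the inhibitory Smad, differed in opposite directions at the 2 ages. It was at 3.46 scaled FPKM in young KO cells, against 5.03 in young WT cells, and at 8.46 in old KO cells, against 6.10 in old WT cells. Young KO was the lowest and old KO the highest of the 4 libraries, with both WT libraries between them. The differences were -0.44 ± 0.52 in young and 0.41 ± 0.44 in old cells, each short of 1.5-fold and within its counting interval. The old difference minus the young one was 0.85 ± 0.68, wider than its counting interval, with no replicate check.

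Of the Smads that carry the signal, Smad3 (ENSMUSG00000032402, chr9:63646767-63757994) was at 19.95 scaled FPKM in young KO cells, against 22.0 in young WT cells, and at 15.9 in old KO cells, against 19.7 in old WT cells. It was lower in the KO library at each age, and the differences, -0.13 ± 0.27 and -0.29 ± 0.30, lie within their counting intervals. Smad2 (ENSMUSG00000024563, chromosome 18), its partner in receiving the signal, was at 5.46 in young KO, 6.51 in young WT, 6.68 in old KO and 6.19 scaled FPKM in old WT cells. Smad4 (ENSMUSG00000024515, chromosome 18), the common partner, was at 14.1 in young KO, 15.3 in young WT, 12.5 in old KO and 13.2 scaled FPKM in old WT cells. No neighbouring levels of these 3 genes, in the order of the libraries, differed beyond the counting interval. Smad3 was higher than Smad2 in every library, by a ratio of 3.66 in young KO, 3.38 in young WT, 2.38 in old KO and 3.18 in old WT cells. Ski came to 0.94 of the level of Smad4 in young KO and 0.96 in old KO cells, against 0.46 in young WT and 0.47 in old WT cells.

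The ligand Tgfb1 (ENSMUSG00000002603, chr7:25687002-25705077) was among the higher genes of each library, above 94.1% to 95.9% of the listed genes. It was at 37.3 scaled FPKM in young KO cells, against 46.4 in young WT cells, and at 46.9 in old KO cells, against 44.3 in old WT cells. Young KO was the lowest library, 0.24 ± 0.21 below the next, old WT, and the other libraries did not differ beyond their counting intervals. The difference was -0.31 ± 0.20 in young cells, beyond the counting interval but short of 1.5-fold, and 0.08 ± 0.20 in old cells.

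Tgfbr1 (ENSMUSG00000007613, chr4:47353222-47414931), the type I receptor, was at 7.69 scaled FPKM in young KO cells, against 8.69 in young WT cells, and at 6.11 in old KO cells, against 8.10 in old WT cells. It was lower in the KO library at each age, with differences of -0.16 ± 0.41 and -0.36 ± 0.45. Tgfbr2 (ENSMUSG00000032440, chr9:116087698-116175363), the type II receptor, was at 23.5 scaled FPKM in young KO cells, against 23.3 in young WT cells, and at 17.1 in old KO cells, against 15.3 in old WT cells. Its levels were set apart between the young and the old libraries, which differ in more than age, and not by genotype. The KO differences were 0.01 ± 0.26 in young and 0.15 ± 0.32 in old cells. With FPKM as deposited, without the library factors, the small young difference changed sign, to -0.10.

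Eng (ENSMUSG00000026814, chr2:32646595-32682669), or endoglin, is a receptor partner of TGF-beta that also stands out on endothelial cells. It was at 10.5 scaled FPKM in young KO cells, against 9.32 in young WT cells, and at 10.4 in old KO cells, against 7.27 in old WT cells. Both KO libraries were above both WT libraries, but no neighbouring levels differed beyond the counting interval. The difference was 0.15 ± 0.37 in young and 0.46 ± 0.41 in old cells, the second beyond its counting interval and short of 1.5-fold. Its locus overlaps that of Fpgs, whose differences were 0.13 and 0.33, and the sources used here do not say whether reads were counted by strand. Of 18 endothelial and stromal markers, 12 were listed in young KO, 9 in young WT, 5 in old KO and 11 in old WT cells. Their summed levels were 44.3 in young KO, 40.9 in young WT, 27.4 in old KO and 32.7 scaled FPKM in old WT cells. Cdh5 and Kdr, picked singly from the endothelial markers of this list, were nowhere above 0.62 scaled FPKM. The sums thus came mostly from its other markers. Of those, Pecam1, Tek, Emcn and Plvap are also endothelial, and their levels are not given here. The part of endothelial or stromal cells in the Eng level was not tested.

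**Figure D2:**
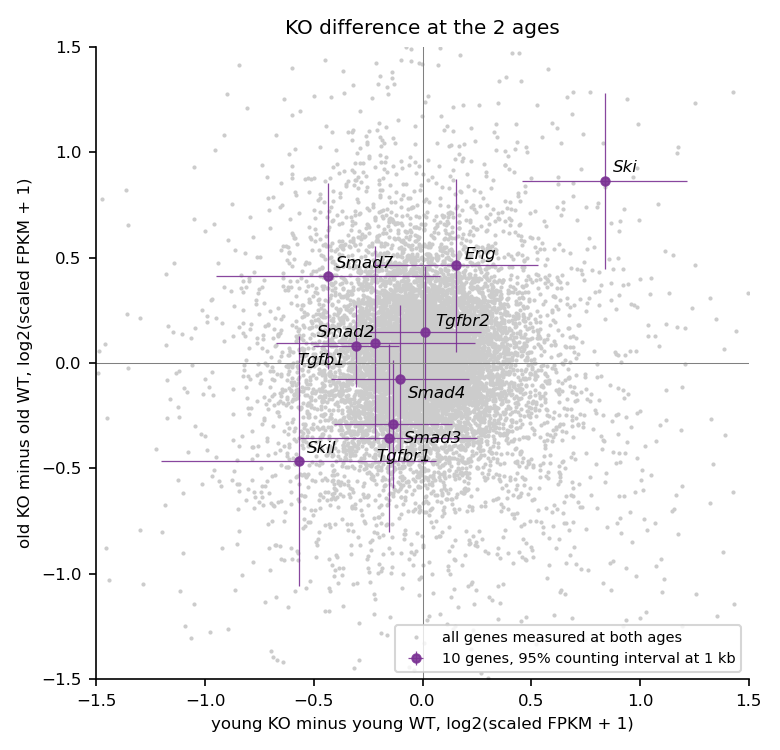
Difference between KO and WT cells in young cells (x axis) against old cells (y axis), in log2(scaled FPKM + 1). Grey points are the genes measured at both ages, 245 of 11873 of which lie beyond the axes; purple points are the 10 genes with 95% counting intervals for a 1 kb transcript. Ski lies at the upper right, at 0.84 and 0.86, and the other 9 genes lie within 0.58 of 0 on both axes.

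At both ages together, 7 of the 10 genes had a KO difference of the same sign, 3 higher and 4 lower in KO cells, against 51.5% of the 11873 genes. The 3 that were higher at both ages were Ski, Eng and Tgfbr2, the last of which was lower in young KO cells without the library factors, and the 4 that were lower were Skil, Smad3, Smad4 and Tgfbr1. Tgfb1, Smad2 and Smad7 had opposite signs at the 2 ages. Apart from Ski, none of these reached 1.5-fold.

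The age comparisons hold more than age. The 4 Y-linked genes examined were listed in both young libraries and in neither old one, and Xist was listed in neither young library but stood at 278.9 in old KO and 291.0 scaled FPKM in old WT cells. Neutrophil markers, 20 of 20 listed in old KO, 18 in old WT and 12 in each young library, summed to 2368.4 scaled FPKM in old KO, 1303.5 in old WT, 876.8 in young KO and 979.3 in young WT cells. Monocyte and macrophage markers, with 18, 16, 15 and 16 of 19 listed in the same order of libraries, summed to 590.8, 176.8, 173.2 and 208.7 scaled FPKM. Antigen receptor segments, those of immunoglobulins and T cell receptors, took 4.67% of the summed FPKM in old KO and 26.8% in old WT cells, against 0.889% in young KO and 0.639% in young WT cells. The young and old groups also differ in the time since pI-pC, 4 weeks against 8 months. The age of the cells cannot be told apart from that time, from the sex of the mice or from these other differences between the libraries.

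Between old KO and young KO cells Smad7 and Skil rose, 2 of 10 genes where 20.4% of 12534 measured genes reached 1.5-fold. Smad7 also reached 2-fold, 1 of 10 where 7.19% did. Smad7 was at 8.46 scaled FPKM in old KO cells, against 3.46 in young KO cells, a difference of 1.08 ± 0.49, and at 6.10 in old WT cells, against 5.03 in young WT cells, a difference of 0.24 ± 0.47. Skil was at 2.22 in old KO, against 1.01 scaled FPKM in young KO cells, a difference of 0.68 ± 0.65. In old WT cells Skil was at 3.45, against 1.98 scaled FPKM in young WT cells. That difference of 0.58 ± 0.58 fell just short of 1.5-fold on the log2(scaled FPKM + 1) scale. Old KO cells, highest in Smad7, were also highest in the neutrophil and monocyte markers, whose part in the Smad7 level was not tested. The ratio of Smad3 to Smad7 was 1.88 in old KO, against 5.77 in young KO cells, and 3.23 in old WT, against 4.37 in young WT cells.

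Between old WT and young WT cells none of the 10 genes reached 1.5-fold, where 15.8% of 12569 genes did, or 2-fold, where 5.55% did. These counts are on the log2(scaled FPKM + 1) scale. As plain ratios of scaled FPKM, old WT over young WT, Tgfbr2 at 0.658 and Skil at 1.74 were past 1.5-fold. Tgfbr2 came closest below 0, at 15.3 in old WT, against 23.3 scaled FPKM in young WT cells, a difference of -0.57 ± 0.29, and in KO cells it was at 17.1 in old, against 23.5 scaled FPKM in young, a difference of -0.44 ± 0.29. Both old libraries were thus below both young ones, by more than the counting interval. Tgfb1 (0.32 ± 0.20) and Smad3 (-0.31 ± 0.30) were also beyond their counting intervals between old KO and young KO cells, and neither was so between old WT and young WT cells (-0.07 ± 0.19 for Tgfb1 and -0.15 ± 0.27 for Smad3).

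**Figure D3:**
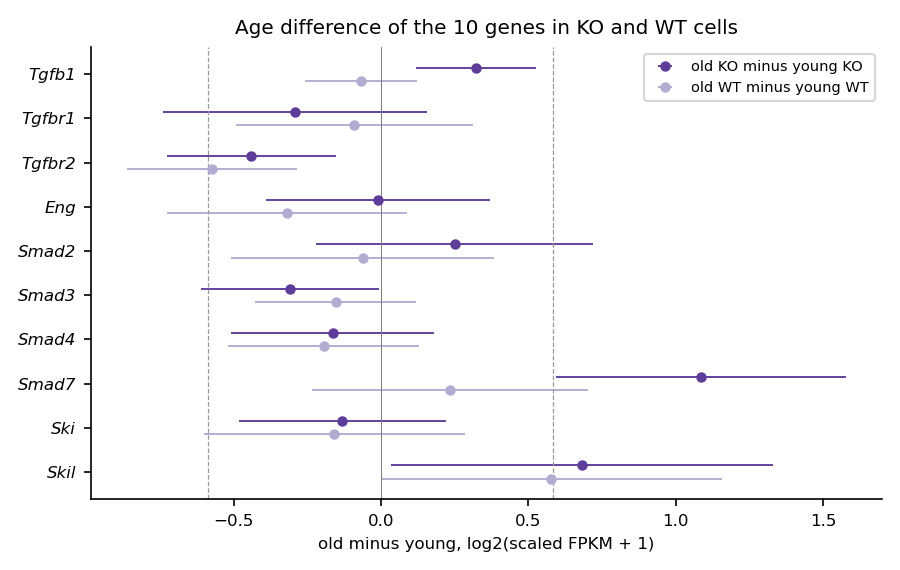
Difference between old and young cells in KO (dark, upper point of each row) and in WT (light, lower point) for the 10 genes, in log2(scaled FPKM + 1). Bars are 95% counting intervals for a 1 kb transcript and dashed lines mark 1.5-fold. Smad7 stands at 1.08 in KO and 0.24 in WT cells, and Tgfbr2 is below 0 in both, at -0.44 in KO and -0.57 in WT cells.

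Around the 10 genes, 7 lists of the pathway held 119 entries, of which 95 were listed in at least 1 library. In young cells 84 of these were measured, with a median difference of 0.02, and 5 were higher and 3 lower in KO cells by 1.5-fold, together 9.52%, against 7.77% of all genes. In old cells 87 were measured, with a median of 0.04, and 10 were higher and 8 lower, together 20.7%, against 12% of all genes. The counts describe these libraries only.

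Among the other ligands and their activators, 11 of 23 were listed, and neither Tgfb2 nor Tgfb3 was. Ltbp3, a latent TGF-beta binding protein, fell in KO cells at both ages. It was at 6.21 scaled FPKM in young KO, against 14.6 in young WT cells, and at 4.67 in old KO, against 11 in old WT cells, with differences of -1.11 ± 0.39 and -1.08 ± 0.45. Both KO libraries were below both WT libraries. Nrros, which anchors latent TGF-beta on myeloid cells, was at 26.3 in young KO, 26.1 in young WT, 25.4 in old KO and 10.2 scaled FPKM in old WT cells. Its old difference of 1.24 ± 0.33 thus came with a low old WT library, the one in which antigen receptor segments and plasma cell markers were highest. Those 18 plasma cell markers, all listed in old WT and 17 in old KO cells, summed to 314.1 in old KO and 2346.9 scaled FPKM in old WT cells, and their part in Nrros was not tested. Thbs1, thrombospondin, an activator of latent TGF-beta, was 2.32 in young KO, against 0.724 scaled FPKM in young WT cells, a difference of 0.95 ± 0.62. In old cells Thbs1 was at 7.62 in KO, against 5.65 in WT cells, a difference of 0.37 ± 0.46, within its counting interval. Both old libraries were thus above both young ones.

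Among the other receptors and their partners, 12 of 16 were listed, with medians of 0.08 over 10 genes in young and 0.05 over 11 genes in old cells. Tgfbrap1, a receptor-associated protein, was higher in young KO cells (3.93, against 2.22 scaled FPKM in young WT cells). Strap, which binds the receptors and Smad7, was higher in old KO cells (60.2, against 35.9 scaled FPKM in old WT cells). Bmpr1a, a BMP receptor, was at 1.42 in old KO, against 2.72 in old WT cells, a difference of -0.62 ± 0.63, within its counting interval. Bmpr1a was listed in neither young library, so old WT was the high library. Tgfbr3, or betaglycan, was at 14.4 in young KO, 13.2 in young WT, 6.38 in old KO and 7.12 scaled FPKM in old WT cells, lower in both old libraries like Tgfbr2; it was picked out after its values were seen. Of the other Smads and anchors, Smad6, an inhibitor of the BMP arm, was at 1.62 in old KO, against 0.663 scaled FPKM in old WT cells. The Smad6 difference, 0.66 ± 0.66, lies just within its counting interval. Pdp1, a pyruvate dehydrogenase phosphatase, was at 0.746 in old KO, against 2.39 scaled FPKM in old WT cells. In young cells Pdp1 was at 0.544 in WT and not listed in KO, so old WT was the high library here too.

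The ubiquitin enzymes of the pathway, 15 of 15 listed, had medians of -0.01 in young and -0.07 in old cells. Wwp1 was the one that reached 1.5-fold, at 4.14 in old KO, against 6.84 scaled FPKM in old WT cells. The nuclear partners of Smads, 19 of 20 listed, had medians of -0.02 and 0.04. Zfp451, a SUMO ligase that represses Smad-driven transcription, fell in KO cells at both ages. It was at 6.27 scaled FPKM in young KO, against 10.8 in young WT cells, and at 2.88 in old KO, against 8.99 in old WT cells, with differences of -0.70 ± 0.41 and -1.37 ± 0.50. Tgif1, a homeobox corepressor of Smads, was at 3.43 in young KO, against 4.98 in young WT cells, and at 7.46 in old KO, against 4.46 scaled FPKM in old WT cells. Zeb1, a zinc finger repressor, was lower in old KO cells, at 2.94, against 4.97 scaled FPKM in old WT cells.

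Target genes of TGF-beta and BMP, 18 of 24 listed, had a median of 0.09 over 15 genes in young and 0.31 over 17 genes in old cells. In old cells 6 were higher and 1 lower in KO cells by 1.5-fold, and 14 of 17 lay above 0. Of all 12478 genes measured there, 12% reached 1.5-fold, 687 higher and 809 lower in KO cells. Id1, an inhibitor of DNA binding driven by BMP signals, was at 11 in old KO, against 3.35 scaled FPKM in old WT cells. Id3 was at 4.09 in old KO cells and not listed in the other 3 libraries, so its difference of 1.75 is a lower bound. Tgfbi was at 14.5 in old KO, against 4.81 scaled FPKM in old WT cells, and Fn1, fibronectin, was at 2.25 in old KO and not listed in old WT cells. The other 2 that were higher, named after their values were seen, were Id2 (11.5 in old KO, against 5.61 in old WT cells) and Cdkn1a (14.6, against 8.36), an inhibitor of cyclin-dependent kinases. Neutrophil markers, 20 of 20 above 0 between old KO and old WT cells, and monocyte markers, 13 of 15 measured, moved with them, and their part was not tested.

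In young cells 2 of the 15 measured target genes were higher and 1 lower in KO cells by 1.5-fold. Of all 12409 genes measured there, 7.77% reached 1.5-fold, 512 higher and 452 lower in KO cells. Junb was lower in young KO cells, at 18.6, against 30.0 scaled FPKM in young WT cells, a difference of -0.67 ± 0.26. In old cells it stood at 127.8 in KO, against 116.6 scaled FPKM in WT cells, well above both young libraries. Col1a1 and Col1a2, collagen genes of stromal cells, were at 5.48 and 1.61 scaled FPKM in young KO cells, and neither was listed in young WT cells. In old cells neither was listed in KO cells, and they were at 1.33 and 1.0 scaled FPKM in WT cells. With unlisted genes set to 0.5 FPKM, the old differences were -0.63 ± 0.65 for Col1a1 and -0.41 ± 0.65 for Col1a2, within their counting intervals.

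Kinases outside the Smad arm, 13 of 13 listed, had medians of 0.03 in young and -0.17 in old cells. Mapk14, the p38 alpha kinase, was at 56.6 in young KO, against 26.5 scaled FPKM in young WT cells, a difference of 1.07 ± 0.21. In old cells it was at 52.6 in KO, against 47.9 scaled FPKM in WT cells, so young WT was the low library. Map3k7, or TAK1, the kinase that passes TGF-beta signals to p38, was at 4.54 in old KO, against 11.7 scaled FPKM in old WT cells, a difference of -1.20 ± 0.45. In young cells Map3k7 was at 11.7 in KO, against 11.4 scaled FPKM in WT cells, so old KO was the low library.

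**Figure D4:**
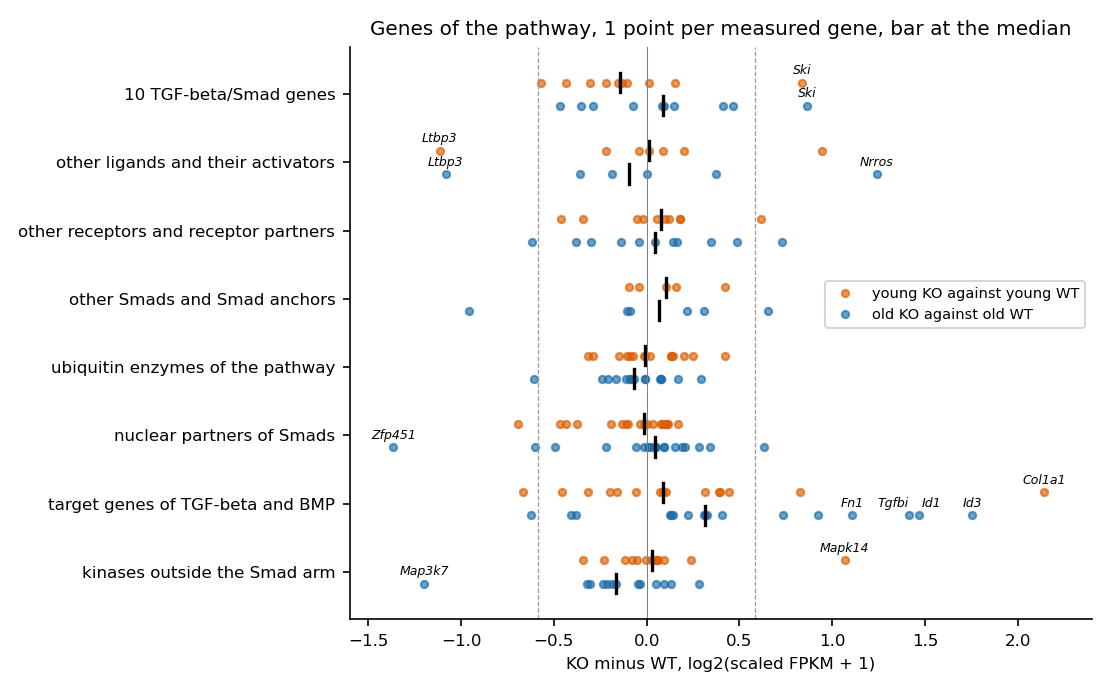
Difference between KO and WT cells, in log2(scaled FPKM + 1), for the 10 genes and 7 lists of the pathway. Each point is 1 measured gene, orange (upper) for young KO against young WT and blue (lower) for old KO against old WT, black bars are medians and dashed lines mark 1.5-fold. The medians lie between -0.17 and 0.10 except that of the target genes in old cells, at 0.31, and Ski, Ltbp3 and Zfp451 are past 1.5-fold on the same side at both ages.

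Over the 4 libraries, 13182 to 13327 genes were listed, and an FPKM of 1 corresponded to 8.93 to 9.57 counted units for 1 kb of transcript. Setd2 was at 12.4 in young KO, against 14.1 in young WT cells, and at 15.5 in old KO, against 15.3 scaled FPKM in old WT cells, so its total level does not tell the KO from the WT libraries. Kit, used for sorting, was at 41.1 to 61.0 scaled FPKM. Ly6a, which encodes Sca-1, was low, at 3.17 in young KO, against 4.86 in young WT cells, and at 4.18 in old KO, against 8.80 scaled FPKM in old WT cells. Whether the deletion left a transcript that still counts under Setd2 was not tested.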

How the data were processed

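Total RNA libraries of sorted LSK cells were compared, 1 each of young KO, young WT, old KO and old WT, grouped by their titles; 2 bisulfite samples were not analysed here. Per the file headers, the deposited unit is FPKM, 1 value per gene. The build is mm10 (GRCm38), and CASAVA, FastQC, Trimmomatic, HISAT2 2.0.4, StringTie 1.3.0 and Bismark are named without a role, both per the submitters' processing notes. Each file lists genes at 0.5 FPKM or more, as its values show, and an unlisted gene was set to 0.5. Symbols were checked by identifier (14382 of 14468 matched, 18 restored from dates, 13 summed over several rows).

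Libraries were divided by median-of-ratios factors over 10935 genes: 0.981 (young KO), 1.06 (young WT), 0.979 (old KO) and 0.982 (old WT). A gene was measured where at least 1 of the 2 libraries compared had a scaled FPKM of 1 or more. Differences are on the log2(scaled FPKM + 1) scale, with no test, since each group is 1 library. Between 61.0% and 69.9% of the low values of genes under 1500 bp lay within 0.02 of a whole step. A counted unit was taken as 2 steps; nearly all multiples were even in the young libraries and about as many odd as even in the old ones, so the spacing was not the same and the intervals of the old libraries may be too wide. Scaling and differences were tested on simulated libraries, which bears on neither the step nor the intervals. All 10 genes are named; of the pathway lists, those past 1.5-fold in a KO comparison, at most 4 per list, unless stated. The genes and lists were chosen with earlier results of these data known. Alternatives were other scalings, pseudocounts of 0.1 and 5, unlisted genes at 0, no filter and a filter at 5. Python 3.11.15, pandas 2.3.3, numpy 2.4.6 and matplotlib 3.10.9 were used.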

Additional observations from a re-analysis of the deposited data

Results flagged for a closer look

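For 3 of the 10 genes the KO difference had opposite signs at the 2 ages, each age being 1 library per genotype. The old difference minus the young one was 0.85 ± 0.68 for Smad7, 0.39 ± 0.28 for Tgfb1 and 0.31 ± 0.65 for Smad2 (95% counting interval for 1 kb of transcript). The same held for 9 named pathway genes, of which Col1a1 alone was past 1.5-fold at both ages. Their old minus young differences were -2.77 for Col1a1, -1.23 for Col1a2 and 1.43 for Fn1, each set in part by libraries in which the gene is not listed. For Junb it was 0.80 ± 0.29 and for Tgif1 1.07 ± 0.71. For Tgfbrap1 (-0.66 ± 0.84), Smad6 (0.75 ± 0.92) and Zeb1 (-0.71 ± 0.74) it lay within the counting interval. In each of these, the KO difference at one of the ages was small: -0.04 for Tgfbrap1 in old, and -0.09 for Smad6 and 0.11 for Zeb1 in young cells. Map3k7, whose young difference was 0.03, had -1.23 ± 0.57. None of these differences between the ages was tested, since no group has a second library.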

How the results depend on the processing

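Under 8 alternatives no difference of the 10 genes moved by more than its counting interval (316 of 316 values). That is a loose limit for low genes, whose intervals are wide. Skil ranged from -0.91 to -0.22 in young cells and from 0.26 to 1.07 between old KO and young KO cells. The other pathway genes were not rerun singly. Ski stayed past 1.5-fold at both ages in 8 of 8, between 0.61 and 0.92 in young and between 0.61 and 0.96 in old cells, and Smad7 between old KO and young KO cells in 8 of 8, between 0.67 and 1.27. Skil and Tgfbr2, near 1.5-fold, crossed it. Without scaling, 2 of the 10 genes were past it in young cells (Ski and Skil) and 1 between old WT and young WT cells (Tgfbr2), as also with upper-quartile scaling (1, Tgfbr2). With a pseudocount of 0.1 the counts were 2 in young, 2 in old (Ski and Skil each time) and 2 between old WT and young WT cells (Skil and Tgfbr2). With a pseudocount of 5, and with a filter at 5, 1 was past it between old KO and young KO cells (Smad7). Over all genes, a pseudocount of 0.1 gave 1809 calls in young and 2388 in old cells. In the order young KO, old KO, old WT against young WT and old KO against young KO, a pseudocount of 5 gave 202, 560, 798 and 1031 calls, and a filter at 5 gave 432, 822, 1248 and 1580. Without scaling the median of all genes moved to -0.10 in young KO and -0.11 in old WT against young WT cells, and 35.0% and 48.4% of the calls were then higher, against 53.1% and 62.8% as reported. Upper-quartile scaling gave 52.7% for old WT and 48.0% for old KO against young cells, against 62.8% and 60.7%. No paired analysis was possible because each group is 1 library. The depth limits Skil most, at 1.01 to 3.45 scaled FPKM.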
